A study of Homo sapiens with 9 samples.

Results

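HNF4A and HNF4G are the paired targets of this knockdown experiment, and the probe sets described here are those whose annotated gene symbol includes either name. Of 54675 probe sets on the array, 2 qualified. Both were annotated to HNF4G alone, under the identifiers 232271_at and 207456_at. The annotation used here pairs 0 probe sets with HNF4A, alone or beside another gene, and HNF4A itself was not analysed here. A further probe set, 1563265_at, is annotated to HNF4A-AS1, the antisense RNA gene beside HNF4A. It is a separate gene and no member, and its values are given only for context.

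HNF4alpha and HNF4gamma are nuclear receptors that bind DNA as dimers at direct repeats of a hexamer. Both belong to the NR2A group, which is related to the retinoid X receptors. HNF4alpha is a main activator of hepatocyte genes for lipoproteins, clotting factors and drug metabolism, while HNF4gamma is better known from intestine, pancreas and kidney. An siRNA lowers the messenger RNA that carries its target sequence, so the array signal of a targeted gene is a check on the labelled treatment.

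The cells were HepG2, an established line from a hepatocellular carcinoma. The 9 arrays form 3 groups of 3. Groups knockdown1 and knockdown2 are both labelled as a joint knockdown of HNF4a and HNF4g by siRNA, and the third group is the matching knockdown control. The siRNA sequences, what distinguishes knockdown1 from knockdown2, what the control cells received and the time of harvest were not given in the sources used here. Replicates carry the numbers 1 to 3 without a statement that they were separate cultures, so p-values cover only the spread among the arrays at hand, and that spread may be technical. In RNA from a whole culture, less target RNA in every cell and a larger share of cells without it cannot be told apart.

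Signals are MAS5 values, a linear and relative brightness. They were scaled so that every array had the same median of 14.1, and changes are differences of log2(signal + 1.41), which understate the change of dim probe sets. All 9 hepatocyte and hepatoma markers checked, ALB and AFP among them, were above the array median on all 9 arrays. The summed signal of those markers ran from 37839 to 46524 in control, 30806 to 37394 in knockdown1 and 33017 to 35937 in knockdown2. None of the 3 leukocyte markers was above the median on all arrays, and their summed signal was 31.3 to 49.1 in control, 11.1 to 17.5 in knockdown1 and 14.2 to 20.2 in knockdown2. For the 5 fibroblast markers it was 85.4 to 130 in control, 96.5 to 122 in knockdown1 and 93.3 to 102 in knockdown2. For the 3 endothelial markers it was 51.4 to 58.6, 71.6 to 81.2 and 81.0 to 94.9 in the same order, and for the 4 cholangiocyte markers 1729 to 2523, 2740 to 3470 and 1982 to 2285. Only COL1A1 of the fibroblast list and PECAM1 of the endothelial list were above the median on every array, as were all 4 cholangiocyte markers. The 2 neural markers summed to between 2.16 and 21.8 on every array. The part of these markers in the results on HNF4G was not tested.

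The brighter HNF4G probe set, 232271_at, was lower in knockdown1 than in control, and the difference of knockdown2 from control did not pass the test. Its scaled signals in the control arrays were 45.2, 47.9 and 44.9. In knockdown1 they were 14.4, 23.5 and 17.4, and in knockdown2 they were 41.9, 24.4 and 28.6. After scaling, the control arrays lay within 3 signal units of each other. As deposited, their signals were 44.2, 53 and 39.2, so that closeness rested on the scaling. The knockdown1 arrays were the lowest, and replicate 1 of knockdown2 came close to the control range. Set against the control mean, 40.1% ± 10.1 (SD, n = 3) of the signal was left in knockdown1 and 68.7% ± 19.9 (SD, n = 3) in knockdown2. These are shares of a relative brightness and include any background the algorithm left in.

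For 232271_at the log2 change over both knockdowns was -0.92 (SE 0.22, 95% interval -1.39 to -0.45, limma adjusted p = 0.00428). For comparison, 14.1% of the 29651 probe sets tested were called lower and 13.1% higher in the same comparison. The fall was the 1663rd of 29651 in order of size, so 5.61% of tested probe sets fell further. In knockdown1 the change was -1.28 (SE 0.26, 95% interval -1.82 to -0.74, limma adjusted p = 8.38e-04), where 15.7% of probe sets were called lower. The number called lower in knockdown1 was 4641 as scaled and 4703 with the values as deposited, while the number called higher was 3537 and 5717, so the balance of higher against lower calls moved with the scaling. In knockdown2 the change was -0.56 (SE 0.26, 95% interval -1.10 to -0.01, limma adjusted p = 0.138), where 10.5% were called lower. The difference between knockdown1 and knockdown2 was -0.72 (SE 0.26, 95% interval -1.27 to -0.18), which narrowly missed the threshold (limma adjusted p = 0.0515), and 14.1% of probe sets were called lower in that comparison. Whether it passed depended on single arrays. It passed without knockdown1 replicate 2 (-0.90, limma adjusted p = 0.0308) and without knockdown2 replicate 2 (-0.89, limma adjusted p = 0.0373). It missed by more without knockdown2 replicate 1 (-0.51, limma adjusted p = 0.261) and without knockdown1 replicate 1 (-0.57, limma adjusted p = 0.174), with the values as deposited (-0.61, limma adjusted p = 0.11) and with no filter (-0.72, limma adjusted p = 0.134).

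All 6 knockdown arrays gave less 232271_at signal than all 3 controls after scaling, as did 9.39% of the tested probe sets. This separation was narrow, between 41.9 in the highest knockdown array and 44.9 in the lowest control. It also rested on the scaling of the arrays. As deposited, knockdown2 replicate 1 had a signal of 40.4 and control replicate 3 had 39.2, so knockdown2 and control overlapped. The arrays of knockdown1 stayed below all controls as deposited too, at 26.2 or less. As scaled, 19.9% of the tested probe sets had all knockdown1 arrays below all controls, and 16.9% had all knockdown2 arrays below them.

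**Figure D1:**
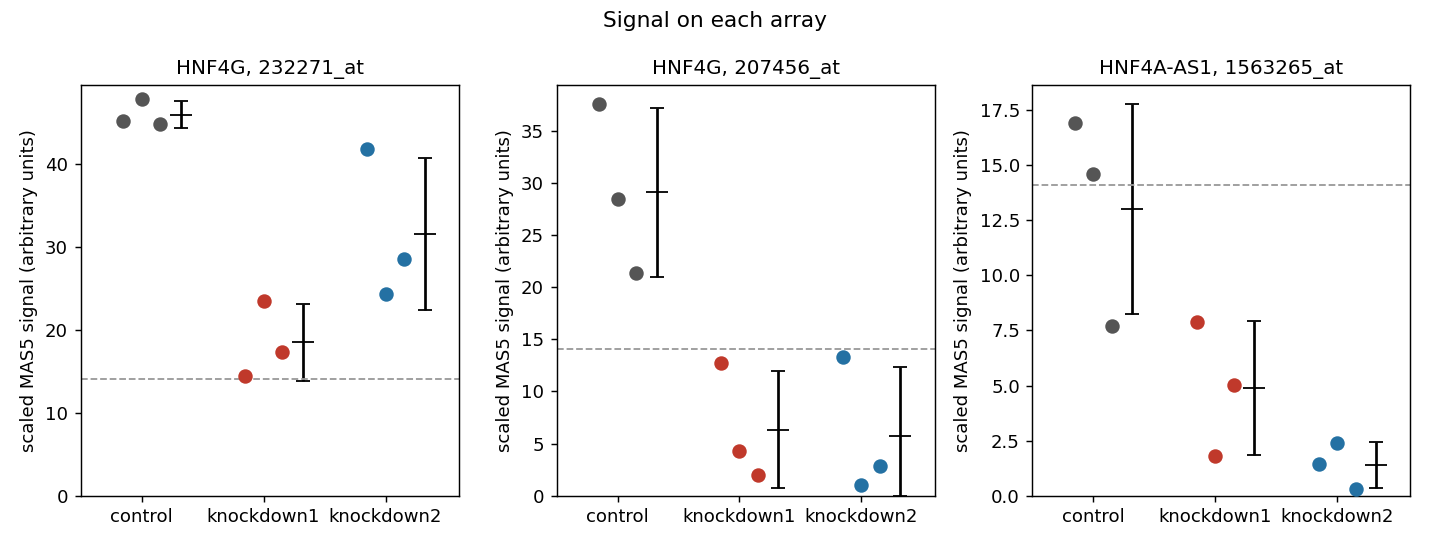
Scaled MAS5 signal (linear, arbitrary units) on each of the 9 arrays for both HNF4G probe sets and for HNF4A-AS1, with points for arrays in replicate order and bars for mean ± SD (n = 3, cut at 0). The dashed line is the common array median of 14.1; 232271_at stayed above it on all arrays, whereas 207456_at was above it in the controls only.

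The dimmer HNF4G probe set, 207456_at, was lower in both knockdown groups. Its scaled signals in control were 37.5, 28.4 and 21.3. In knockdown1 they were 12.7, 4.31 and 1.98, and in knockdown2 they were 13.3, 1.04 and 2.84. All 6 knockdown arrays lay below all 3 controls, as in 9.39% of the tested probe sets. In each knockdown replicate 1 was the brightest array by far. The mean left was 21.8% ± 19.4 (SD, n = 3) of control in knockdown1 and 19.7% ± 22.7 (SD, n = 3) in knockdown2, so the spread between arrays was about as large as the mean itself.

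For 207456_at the log2 change over both knockdowns was -2.34 (SE 0.63, 95% interval -3.65 to -1.02, limma adjusted p = 0.00872). In knockdown1 it was -2.20 (SE 0.73, limma adjusted p = 0.0295) and in knockdown2 it was -2.48 (SE 0.73, limma adjusted p = 0.0173). Between the knockdowns it differed by 0.28, with a 95% interval from -1.24 to 1.80 (limma adjusted p = 0.839). That interval is wide enough to hold the difference of -0.72 seen with 232271_at.

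The filter on dim probe sets asked for a signal above the array median on at least 3 arrays, and both HNF4G probe sets passed it. They passed in different ways. The probe set 232271_at was above the median on all 9 arrays, between the 50.4th and the 70.1st percentile of its array. The probe set 207456_at was above it on the 3 control arrays alone, between the 57.4th and 66.1st percentile there, and between the 7.57th and 48.6th percentile on the knockdown arrays. A probe set that passes only through the group where it is brighter had to differ in that direction, so neither the pass nor the lack of overlap between knockdown and control arrays counts for anything, and the test of 207456_at carries less weight than its p-value alone.

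The size of the fall at 207456_at depended on how signals below the median were handled. Over both knockdowns it was -2.75 with a pseudocount of 0.01 of the median and -1.13 when the pseudocount equalled the median. With every signal below the common median raised to that median, an alternative chosen after seeing the data, it was -0.94 (limma adjusted p = 5.27e-04), and 232271_at gave -0.92 (limma adjusted p = 0.00309). In knockdown1 the call of 207456_at ended with the smallest pseudocount (-2.52, limma adjusted p = 0.0575), without replicate 2 (-2.10, limma adjusted p = 0.0674) and without replicate 3 (-1.73, limma adjusted p = 0.105). In knockdown2 it ended without replicate 2 (-1.91, limma adjusted p = 0.0663).

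**Figure D2:**
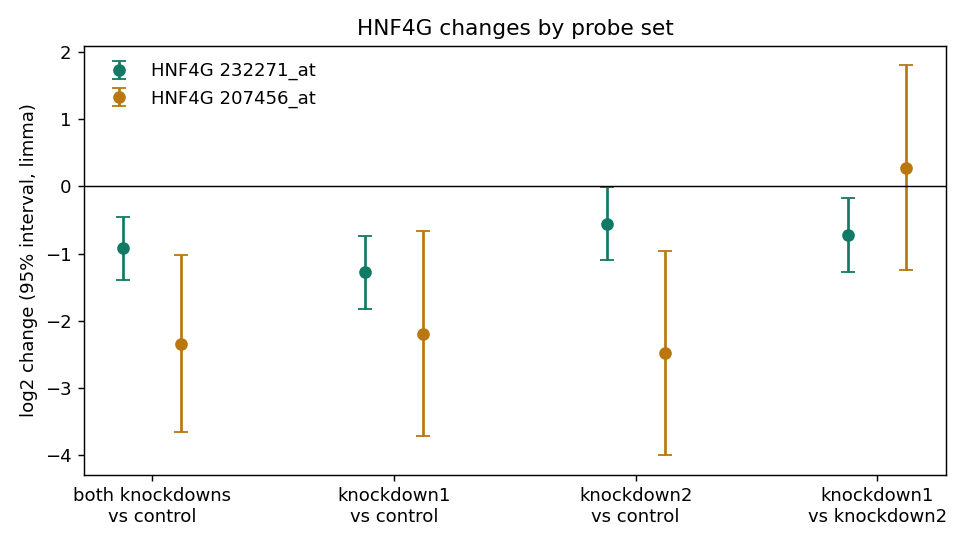
Log2 change of the HNF4G probe sets in each comparison (limma, bars are 95% intervals). For 232271_at the change was -1.28 in knockdown1 and -0.56 in knockdown2, and for 207456_at it was -2.20 and -2.48, with intervals that were wider by far.

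Both probe sets are annotated to 1 gene, so they were set against each other array by array. The log2 value of 207456_at minus that of 232271_at was -0.26, -0.73 and -1.03 in control, -0.16, -2.12 and -2.47 in knockdown1, and -1.56, -3.40 and -2.82 in knockdown2. Knockdown1 replicate 1 lay just above the control range, while the other 5 knockdown arrays lay below. The change at 207456_at minus that at 232271_at was -1.42 on the log2 scale, which did not pass an exact two-sided permutation test of 6 knockdown against 3 control arrays (p = 0.107, 1 pair tested, adjusted p = 0.107). With 84 arrangements the smallest p this design allows is 0.0119. Of the 6 knockdown arrays, leaving out knockdown1 replicate 1, the array above the control range, gave -1.80 (exact permutation p = 0.0179). That is the smallest p the test allows with 1 knockdown array fewer. It came from removing the 1 array that went against the direction, so it is no support. Since 207456_at passed the filter through the control arrays alone, a negative difference was also favoured in advance. Leaving out each of the other 5 gave exact permutation p-values from 0.125 to 0.161. When the pseudocount equalled the median the difference was -0.47 (exact permutation p = 0.155). With signals below the median raised to it, the difference was -0.02 (exact permutation p = 0.952).

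The order of the knockdown groups differed between the probe sets. By 232271_at knockdown1 had the lower mean, 18.5 ± 4.66 against 31.6 ± 9.14 (SD, n = 3). By 207456_at the means of 6.33 ± 5.63 and 5.72 ± 6.60 (SD, n = 3) lay within the spread. The log2 difference between the probe sets was 1.01 higher in knockdown1 than in knockdown2, which did not pass an exact two-sided permutation test (p = 0.4), and 3 arrays against 3 allow no p below 0.1 in that test. Which of the knockdowns left less HNF4G RNA was therefore not settled by these arrays. The parts of the HNF4G transcripts that the probe sets cover were not given in the sources used here.

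**Figure D3:**
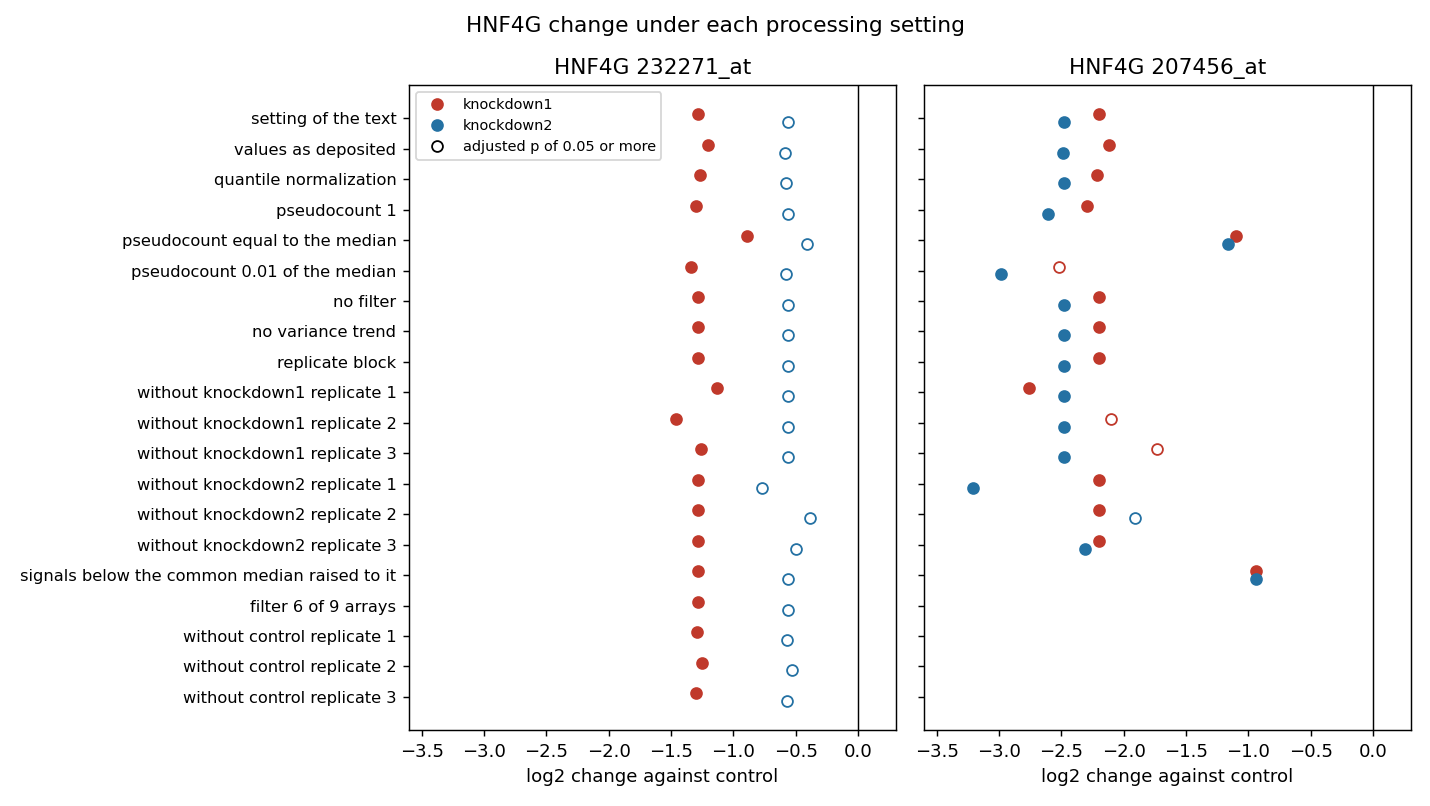
Log2 change of the HNF4G probe sets against control in knockdown1 (red) and knockdown2 (blue) under each processing setting, with open points where the limma adjusted p was 0.05 or more. Every point lies below 0; for 232271_at knockdown1 passed and knockdown2 missed the threshold under every setting shown, and 207456_at has no point where the filter left it out.

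HNF4A-AS1 was dim. Its probe set 1563265_at gave scaled signals of 16.9, 14.6 and 7.68 in control, 7.90, 1.80 and 5.01 in knockdown1 and 1.45, 2.38 and 0.316 in knockdown2. Knockdown2 lay below all controls, as in 16.9% of the probe sets that passed the filter, and knockdown1 overlapped them by 1 array. The probe set was above the array median on 2 of 9 arrays and did not pass the filter. Fitted without the filter, over 54613 probe sets of which 6.80% were called lower, its change over both knockdowns was -1.82 (SE 0.48, limma adjusted p = 0.0190), with -1.26 (SE 0.55, limma adjusted p = 0.179) in knockdown1 and -2.38 (SE 0.55, limma adjusted p = 0.0104) in knockdown2. HNF4A lies on the other strand, and the strand that the probe set reads was not given in the sources used here, so these signals were not taken as a measure of HNF4A.

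Likeness to HNF4G was measured as the root mean square difference, over the 9 arrays, between log2 values centred on each probe set's mean. Of 24563 other probe sets with 1 gene symbol, the closest to 232271_at were those of MAPK9, a stress-activated kinase gene (0.176), CNTNAP1, which encodes a contactin-associated membrane protein (0.190), and PHKG2, the liver phosphorylase kinase subunit gene (0.208). MAPK9 changed by -1.28 in knockdown1 and -0.63 in knockdown2, CNTNAP1 by -1.24 and -0.41, and PHKG2 by -1.23 and -0.59. The closest to 207456_at were ARHGAP33 (0.465), CYP19A1, the aromatase gene (0.537), and FAM20A (0.549). Their changes were -1.75 and -1.95 for ARHGAP33, -1.84 and -2.46 for CYP19A1 and -2.28 and -2.21 for FAM20A, in knockdown1 and knockdown2 in turn. All these genes were picked for matching HNF4G on the same arrays, so their falls were set by that choice. ARHGAP33 averaged 6.84 and 6.24 in the knockdowns, and CYP19A1 6.02 and 4.09. These means lay below the common array median, as did those of 207456_at, while those of FAM20A (37.6 and 39.4) lay above it. The HNF4G probe sets lay 1.09 from each other by this measure. As many as 860 probe sets lay closer to 207456_at than 232271_at did, and 22878 lay closer to 232271_at than 207456_at did. The measure counts array scatter as well as group differences, and the scatter of 207456_at was the larger.

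The relatives of HNF4 in the NR2 subfamily were checked next. Over all 13056 tested genes, 17.3% fell and 14% rose over both knockdowns, and the median change of all tested probe sets was 0.01. Of 6 tested NR2 relatives, 3 (50%) fell and 0 rose over both knockdowns, with a median change of -0.53. In knockdown1 4 (66.7%) fell and 1 (16.7%) rose, beside 18.5% and 13.6% of all tested genes. In knockdown2 4 (66.7%) fell and 0 rose, beside 13.4% and 13%. RXRB rose by 0.51 in knockdown1 (limma adjusted p = 0.0106) and changed by -0.52 in knockdown2 (limma adjusted p = 0.0116). Its difference between the knockdowns was 1.03 (limma adjusted p = 2.19e-05). RXRA, the retinoid X receptor alpha gene, fell to 69.9 in knockdown1 and 70.0 in knockdown2 from a control signal of 123 (-0.81, limma adjusted p = 4.74e-04). NR2F1, which encodes COUP-TFI, a receptor that binds sites like those of HNF4, changed by -0.86 (limma adjusted p = 1.50e-04), and NR2F6 by -0.93 (limma adjusted p = 1.31e-05). The falls of RXRA, NR2F1 and NR2F6 were about as large as that of 232271_at over both knockdowns. Whether any of these transcripts contribute to the signal of the HNF4G probe sets was not tested.

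Among coregulator genes of HNF4, 3 of 17 tested (17.6%) fell and 2 (11.8%) rose, with a median of 0.03, so the counts lay near the shares of 17.3% and 14% over all tested genes. PPARGC1A, whose product coactivates HNF4alpha on gluconeogenic genes, changed by -2.47 in knockdown1 and -0.87 in knockdown2 (limma adjusted p = 3.69e-06 for the difference between them). In that comparison 14.1% of probe sets were called lower in knockdown1. The point values of 232271_at had the same order, with a difference that missed the threshold, and those of 207456_at had the other order (-2.20 and -2.48). PROX1, which encodes a corepressor of HNF4alpha, rose by 1.13 and 1.25, from a signal of 77.0 in control to 171 and 185. NR0B2, which encodes the corepressor SHP, gave -0.28 over both knockdowns (limma adjusted p = 0.165). The calls of NCOA2 and MED1 as lower, and of KAT2B as higher, ended when the knockdown arrays were pooled as 1 group (limma adjusted p = 0.176, 0.453 and 0.212). The calls of MED1 and KAT2B also ended without control replicate 1 or 3 and without knockdown1 replicate 1 or 2. That of MED1 ended without any knockdown2 array (largest limma adjusted p without 1 array = 0.169, without control replicate 3), and that of KAT2B without knockdown1 replicate 3 or knockdown2 replicate 3 (largest limma adjusted p without 1 array = 0.144, without control replicate 1).

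Of 24 tested hepatocyte transcription factor genes, 9 (37.5%) fell and 3 (12.5%) rose, beside 17.3% and 14% over all tested genes, with a median of -0.21. CREB3L3, a liver factor of the fasting response, changed by -1.56 (SE 0.45), and NR5A2 and GATA4 each by -0.94. CREB3L3 averaged 7.99 ± 4.85 in knockdown1 and 9.7 ± 1.77 in knockdown2 (SD, n = 3), against 28.6 in control. With these spreads no knockdown array reached the array median of 14.1, so CREB3L3 passed the filter through the control arrays alone. Its direction was therefore set by the filter, and its call as lower carries less weight. In knockdown2 alone its change of -1.36 missed the threshold (limma adjusted p = 0.0681). FOXA3, which encodes a liver pioneer factor, rose by 0.87 (SE 0.12).

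Textbook targets of HNF4 formed the last list. Its genes were chosen with earlier results of these arrays known, so its direction is no independent evidence. Of 48 tested genes 29 (60.4%) fell and 1 (2.08%) rose, beside 17.3% and 14% over all tested genes, with a median of -0.69. CREB3L3, which passed the filter through the control arrays alone, is among those 29. The 1 that rose was G6PC1 (1.16, SE 0.38, limma adjusted p = 0.0287), whose call ended without control replicate 1 (0.55, limma adjusted p = 0.251). The call of G6PC1 also ended without knockdown1 replicate 2 or knockdown2 replicate 2 (limma adjusted p = 0.0706 and 0.0676), with both knockdowns pooled as 1 group (0.0819), with no filter (0.0857) and without the variance trend (0.082). CYP4F3, a fatty acid hydroxylase gene whose probe set may also read its close relatives, changed by -4.78 (SE 0.20), CIDEB, a lipid droplet gene, by -4.10 (SE 0.16), and FABP1, the liver fatty acid binding protein gene, by -4.00 (SE 0.21). In these 3 genes the knockdowns differed by at most 0.53, with -4.36 in knockdown1 and -3.83 in knockdown2 for CIDEB (limma adjusted p = 0.0416 for that difference).

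**Figure D4:**
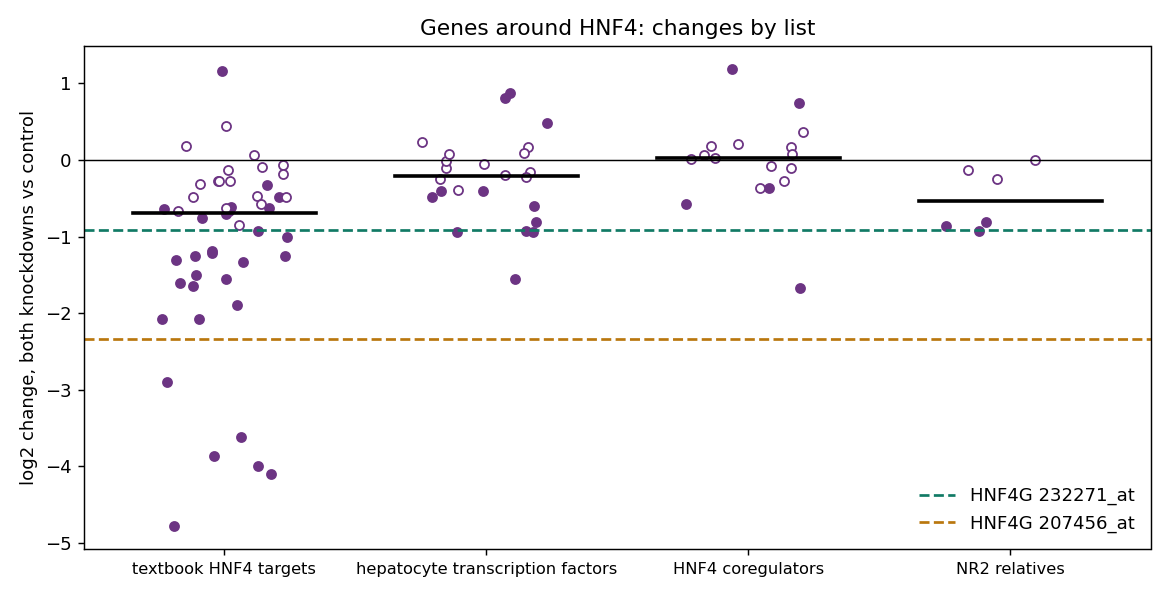
Log2 change over both knockdowns for each tested gene of 4 lists, filled where the limma adjusted p was under 0.05, with a black bar at each list's median and dashed lines at the HNF4G probe sets (-0.92 and -2.34). Among textbook targets 29 of 48 genes fell, and the coregulators lie around 0.

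Promoter sequence shows what a site for HNF4 can look like in such a gene. The 250 bases before each RefSeq start (GRCh38.p14) were searched on both strands for CAAAGTCCA, a form that HNF4 receptors prefer over other nuclear receptors. It was found in 0.325% of all 35116 promoter windows. Of the 38 tested textbook targets with a window, 1 held it, and that was CIDEB. The window of CIDEB is shown because it held the only match among those targets. Its match starts 55 bases before the start, and CAAAGTCCA reads on the strand opposite to the gene. The 49 bases shown are the match with its flanks, chr14:24308004-24308052. They are written along the minus strand, which is that of the gene, with the matching letters in capitals.
CIDEB: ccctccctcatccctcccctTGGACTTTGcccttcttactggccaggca
Neither of the 2 HNF4A promoter windows held CAAAGTCCA or the related CAAAGGTCA, which was in 0.339% of all windows and in 0 windows of the tested textbook targets. A match is a description of the letters and not a measured binding site.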

How the data were processed

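RNA of HepG2 cells was read on 9 oligonucleotide arrays of 1 colour. The deposited intensity of each probe set is a linear signal made by the authors with MAS5, per the submitters' processing notes, and its version was not given in the sources used here. Since array medians ran from 12.3 to 15.7 (a ratio of 1.28, above the rule of 1.2), each array was rescaled. Each was multiplied by 0.898 to 1.15 to reach a median of 14.1, and 1.41 was added before taking log2. Before that step the arrays already shared a mean of 100 after trimming by 2%, so 1 common level was replaced by another. With the values as deposited, 10051 probe sets were called over both knockdowns in place of 8059. The number of arrays, 3 a group, limits the precision.

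Of 54675 probe sets, 62 were controls. Those above the array median on at least 3 of 9 arrays, 29651, entered 1 fit of 3 groups with limma 3.58.1 in R 4.3.3 (variance trend, two-sided, Benjamini-Hochberg over all 29651, threshold 0.05). Probe sets with several symbols or none were kept here. A gene in a list was represented by its brightest probe set with 1 symbol. Of the listed genes, those not tested have no value here.

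The members and lists were chosen with earlier results of these data known. All members were named. So were all tested coregulators and NR2 relatives that the text needs, the 3 largest called changes of each other list with 1 against the majority, the 3 probe sets most like each member, and the protein-coding genes next to HNF4A and HNF4G in RefSeq (GRCh38.p14). The fit was tested on simulated data. Alternatives were the scaling, the pseudocount, the filter, the variance trend, pooled knockdowns, a replicate block and leaving out each array. Whether same-numbered arrays were handled together was not stated, and the main fit did not pair them. Deviations of same-numbered arrays correlated at -0.033 to 0.100, which cannot show that they shared no culture or batch. With a replicate block 9081 probe sets were called over both knockdowns in place of 8059.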

Additional observations from a re-analysis of the deposited data

How the results depend on the processing

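The change of 232271_at over both knockdowns lay between -1.02 and -0.65 in 20 alternatives and passed the threshold in each, with a largest limma adjusted p of 0.0497 (knockdown arrays pooled). That of 207456_at lay between -2.75 and -0.94 in the 16 that could be fitted, with a largest limma adjusted p of 0.0260 (same setting). Since 207456_at passed the filter only through the control arrays, its passes under filtered settings are no support; with no filter it gave -2.34 (limma adjusted p = 0.0135). The filter on 6 of 9 arrays and the loss of any control array left 207456_at untested. For 207456_at in knockdown1 the smallest pseudocount gave -2.52, past the threshold no longer, and leaving out 1 array gave -2.76 to -1.73; in knockdown2 the latter gave -3.21 to -1.91. The difference of 232271_at between the knockdowns, -0.72, passed with the stricter filter (-0.72, limma adjusted p = 0.0494) and with dim signals raised to the median (-0.72, limma adjusted p = 0.0367), and ran from -0.90 to -0.51 without 1 array. For 207456_at that difference, 0.28, was -0.28 without knockdown1 replicate 1 or knockdown2 replicate 2. Between the probe sets the difference ran from -1.80 to -1.16 without 1 array. With the replicate block the changes over both knockdowns were -0.92 and -2.34 (limma adjusted p = 0.00629 and 0.00410), and the block changed no call on HNF4G.

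With the knockdown arrays pooled, 3947 probe sets were called in place of 8059, and the lists had 2 coregulators, 7 hepatocyte transcription factors, 4 RNA interference genes and 1 gene of the double-stranded RNA response. The last list had 7 with the values as deposited. Without 1 array the counts were 3 to 5 coregulators, 3 to 7 RNA interference genes and 2 to 6 double-stranded RNA response genes, the lowest without control replicate 1 for the coregulators and RNA interference genes and without control replicate 3 for the response genes. Coregulators also numbered 3 without knockdown1 replicate 1 or 2. The causes were not tested. The signal of 207456_at was below the array median on all 6 knockdown arrays, and the size of its change there moved with the pseudocount and the floor.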

Other observations

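Of 12 tested genes of the RNA interference and microRNA machinery, 3 (25%) fell and 4 (33.3%) rose over both knockdowns, with a median change of -0.17. The shares over all tested genes were 17.3% and 14%. TNRC6C, a partner of Argonaute proteins, changed by -0.73 at its brightest probe set. Of its 4 other probe sets that passed the filter, only 1 changed in the same direction. DROSHA, the nuclear microRNA nuclease gene, changed by 0.72, and XPO5, the pre-microRNA exporter gene, by 0.46. Of 18 tested genes of the response to double-stranded RNA, 4 (22.2%) fell and 0 rose over both knockdowns, with a median of 0.08. In knockdown1 2 (11.1%) fell and 4 (22.2%) rose, beside 18.5% and 13.6% of all tested genes. In knockdown2 6 (33.3%) fell and 0 rose, beside 13.4% and 13%. IFIT3, IFIH1 and OAS3 changed by 0.08, -0.12 and -0.23 in knockdown1 and by -1.39, -1.17 and -1.02 in knockdown2, and IFIT3 and OAS3 missed the threshold over both knockdowns without control replicate 3 (limma adjusted p = 0.124 and 0.0549). With the knockdown arrays pooled all 3 missed it (limma adjusted p = 0.358, 0.178 and 0.15). IFIT3 also missed it with no filter (limma adjusted p = 0.0572) and with no variance trend (limma adjusted p = 0.0852). IFIT1, an interferon-induced gene named after its values were seen, rose by 1.88 in knockdown1 (limma adjusted p = 1.05e-05) and changed by -1.08 in knockdown2 (limma adjusted p = 0.00349), a difference of 2.96 between the knockdowns (limma adjusted p = 4.73e-08).

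Of the protein-coding neighbours of HNF4A, FITM2, a lipid droplet gene, changed by 0.27 in knockdown1 (limma adjusted p = 0.271) and by -1.27 in knockdown2 (limma adjusted p = 1.40e-05), and these differed (limma adjusted p = 1.26e-06). TTPAL rose by 0.75 over both knockdowns (limma adjusted p = 0.00202) and SERINC3 gave 0.23 (limma adjusted p = 0.145). Of the neighbours of HNF4G, PEX2, a peroxisome assembly gene, rose in knockdown1 by 0.67 (limma adjusted p = 0.00106) and gave -0.10 in knockdown2 (limma adjusted p = 0.660), while PI15 and ZFHX4 gave -0.34 and 0.14 over both knockdowns (limma adjusted p = 0.659 and 0.862). R3HDML and CRISPLD1 did not pass the filter.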
